A study of Mus musculus with 56 samples.

Results

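The genes followed here are 9 members and regulators of the complement system, C1qa, C1qb, C1qc, C3, C4b, Cfb, Cfd, Cd55 and Clu, found by symbol among the 53379 Ensembl genes of the count table, where each matched 1 row. Expression was measured by total RNA sequencing in male C57BL/6 mice of 3 and 21 months, in the testis, the efferent ductules, the initial segment, caput, corpus and cauda of the epididymis, and the vas deferens. Each of these 7 regions had 4 libraries per age, which makes 14 groups and 56 libraries. The labels name no allele and no treatment, so the groups differ by region and age. According to the study's methods, the organs of both sides of a mouse were dissected, the regions came from the same mice, and fat and surplus connective tissue were trimmed off before dissection. The mice were bought from the animal centres of 2 universities, and the methods do not say which centre supplied which age, so origin and age cannot be told apart. P-values therefore measure the spread between these libraries.

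Complement is a cascade of secreted proteins that tags particles and cells for removal. C1q, assembled from the chains that C1qa, C1qb and C1qc encode, binds antibody complexes and dying cells and starts the classical pathway, in which C4 is cleaved. C3 is the point where the classical, lectin and alternative pathways meet, and factor B (Cfb) and factor D (Cfd, also called adipsin) are the proteases that amplify its cleavage. Cd55 on cell membranes speeds the decay of the C3-cleaving enzymes, and clusterin (Clu) is a secreted protein that blocks the terminal complex and is a well-known major product of the epididymal epithelium. Tissue macrophages are a main source of C1q and adipocytes of factor D. In the male tract, where sperm carry antigens that arise after immune tolerance is set, complement inhibitors have long been studied on sperm.

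Libraries held between 11125279 and 20561967 counts. The noncoding RNA Gm42418 took 1.27% to 49.7% of them, the highest share in replicate 2 of the caput at 3 months. The 9 genes chosen to check the dissections were highest in their own region at both ages, and some of them changed with age elsewhere. In the efferent ductules at 21 months replicates 2 and 3 held the initial segment genes Lcn8 (447.3 and 173.5 CPM) and Adam28 (151.9 and 78.7 CPM), which lay at or below 0.323 CPM in the other 6 libraries of that region. Vas deferens levels of Ptgds, Spint3 and Adam28 were called higher at 21 months and those of Aqp1 and Akr1b7 lower, Akr1b7 from 24210 to 27380 CPM to 12430 to 20940 CPM. In the initial segment Lrp2 read 85.7 to 171.3 CPM at 3 months and 33.5 to 190.4 CPM at 21 months. Aqp1 read 66.9 to 76.5 CPM and 37.1 to 81.2 CPM. Replicate 4 there at 3 months had the highest Ptgds (109.2 CPM) and Akr1b7 (2.75 CPM) of its group and the lowest Adam28 (3780 CPM). It also had the highest Clu (1236 CPM). The part of these levels in the results was not tested. Replicate 3 of the cauda at 3 months stood apart: the summed level of 10 macrophage markers was 3345 CPM there and 370 to 395 CPM in the other 3 libraries, the pan-leukocyte gene Ptprc was at 174 CPM against 25.3 to 27.9, and 6 fibroblast markers summed to 7027 CPM against 1578 to 1731. Age estimates of the 9 genes in the cauda stand with and without it. Adipocyte marker results and the median of other complement genes there are given only with it. Levels are in CPM, the count relative to a library size scaled by the TMM method, over the 8 libraries of a region where ages are compared, and over the 28 libraries of an age where regions are ordered.

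The 9 genes covered a wide range of levels and most differed in their order along the tract, with the same order for C1qb and C1qc at 3 months and for C1qa and C1qb at 21 months. Per kilobase of exon, the scale on which genes can be compared, Clu in the caput at 3 months reached 4468 CPM per kb. Cfd in the efferent ductules had 271 CPM per kb, C3 in the vas deferens 185 CPM per kb, C4b in the efferent ductules 40.6 CPM per kb and Cd55 in the testis 6.94 CPM per kb. Cfb was the lowest of the 9 at its highest place, with 1.14 CPM per kb in the efferent ductules. Any 2 regions differed in 23.4% to 75.6% of all genes tested at 3 months and in 26.8% to 75.1% at 21 months, so a call between regions was common. At 3 months 9 of the 9 genes differed between testis and efferent ductules (Benjamini-Hochberg adjusted p under 0.05, against 75.2% of all genes tested), 6 between efferent ductules and initial segment (42.5% of all genes), 4 between initial segment and caput (27.4%), 8 between caput and corpus (32.7%), 6 between corpus and cauda (23.4%) and 7 between cauda and vas deferens (36.3%). The 6 between corpus and cauda became 3 without replicate 3 of the cauda. Among the 4 between initial segment and caput the call for C1qb was close to the threshold (adjusted p = 0.0492), and the count was 1 without the replicates numbered 1 and 2 without those numbered 2.

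**Figure D1:**
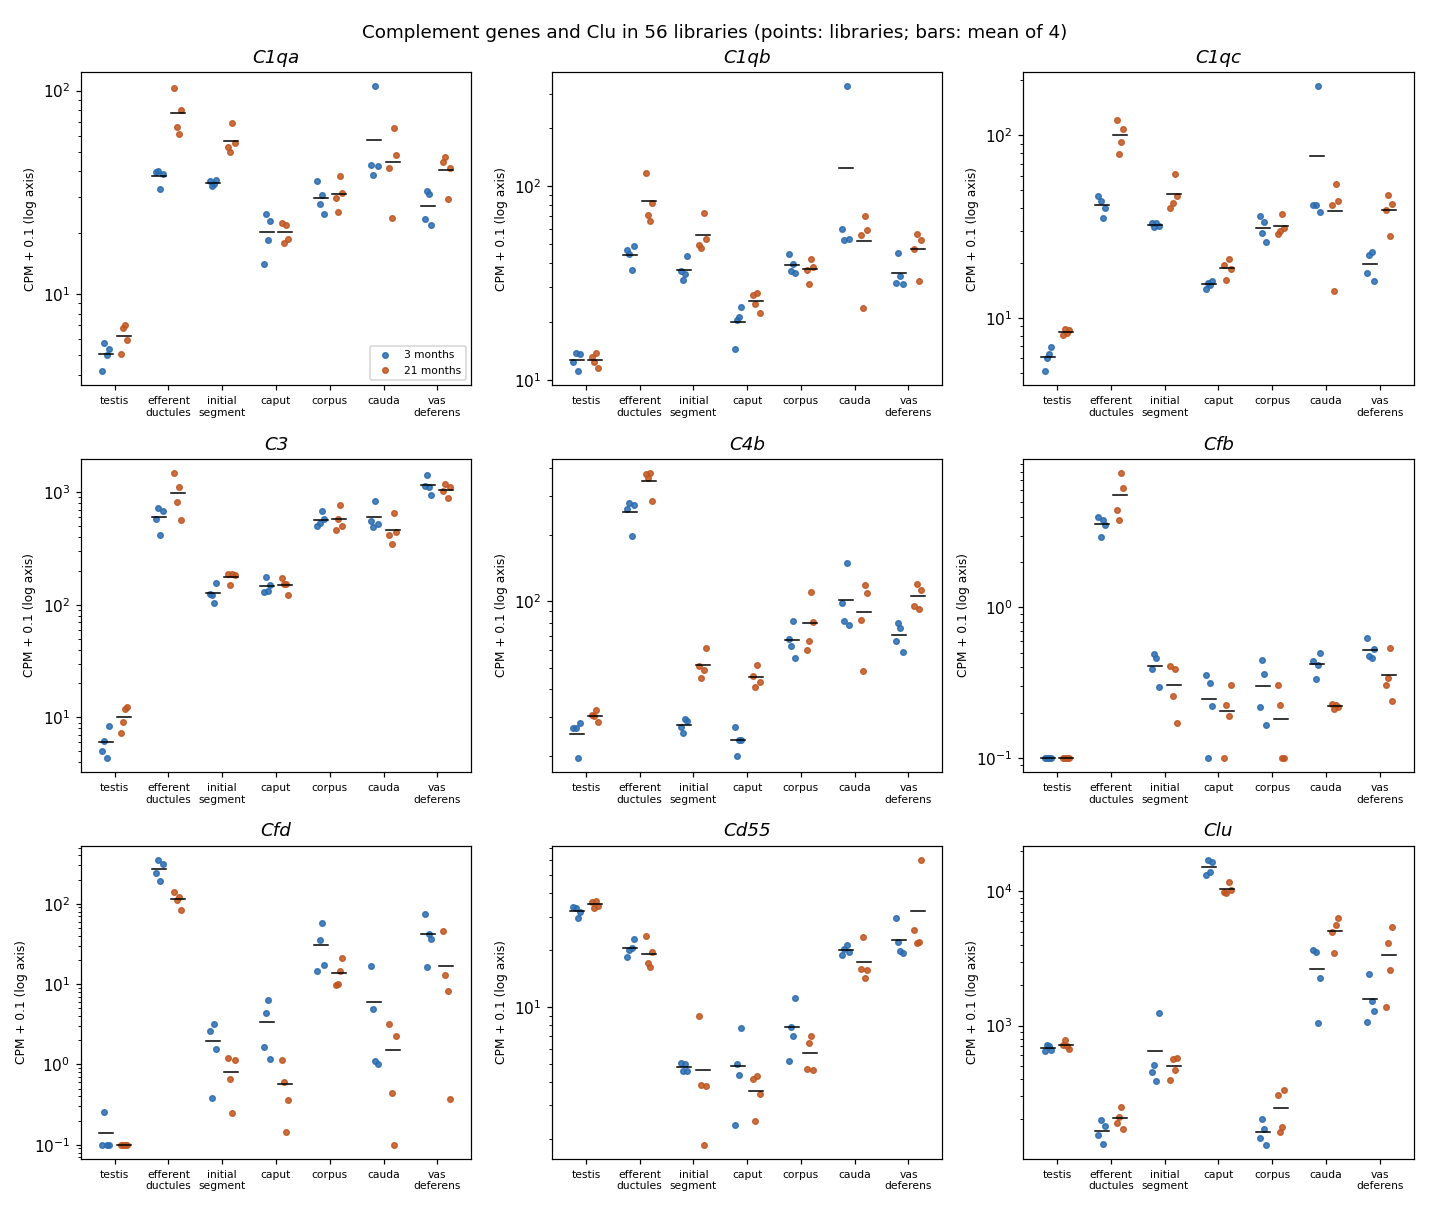
Level of each of the 9 genes in the 56 libraries, in CPM plus 0.1 on a log axis, by region, with 3 months in blue and 21 months in orange. Points are libraries and bars are means of 4; the C1q genes stand high in a single cauda library at 3 months, Clu is highest in the caput at both ages, and Cfd lies lower at 21 months in the efferent ductules, where the ages do not overlap.

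The C1q genes lie side by side on the minus strand of chromosome 4 (GENCODE M21, GRCm38): C1qb at chr4:136880129-136886187, C1qc at chr4:136889804-136893065 and C1qa at chr4:136895917-136898803. Over the 14 group means of log2(CPM + 1), the correlation of C1qa with C1qc was 0.96, of C1qb with C1qc 0.96 and of C1qa with C1qb 0.93, a description over groups that share mice. As they moved together, the stretch of 250 bases before the RefSeq start site is printed for the members of the cluster that the promoter table holds, C1qb (chr4:136886201-136886450, minus strand, GRCm38.p6) and C1qc (chr4:136892915-136893164, minus strand, GRCm38.p6), 5′ to 3′ along the gene. Capitals mark GAGGAA, a core that ETS factors such as the myeloid factor PU.1 bind, which lies at bases -30 to -25 of C1qb and, on the other strand as TTCCTC, at bases -193 to -188 of C1qc. Positions count from the RefSeq start. For C1qc the GENCODE gene reaches into the printed stretch, so part of that stretch lies within the gene as GENCODE gives it.
C1qb: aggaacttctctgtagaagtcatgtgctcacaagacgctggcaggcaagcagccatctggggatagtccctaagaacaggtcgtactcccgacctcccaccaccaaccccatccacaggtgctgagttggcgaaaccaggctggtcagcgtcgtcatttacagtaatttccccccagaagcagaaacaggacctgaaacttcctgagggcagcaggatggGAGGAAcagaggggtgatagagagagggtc
C1qc: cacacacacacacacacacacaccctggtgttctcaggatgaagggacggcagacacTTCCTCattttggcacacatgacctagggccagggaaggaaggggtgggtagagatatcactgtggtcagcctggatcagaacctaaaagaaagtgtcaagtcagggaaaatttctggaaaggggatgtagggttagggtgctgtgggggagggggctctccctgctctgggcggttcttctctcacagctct
GAGGAA was searched on both strands of the window of 250 bases before and 50 after the start, and 28.3% of 32851 promoters hold it, so a match in 2 of the 5 members with a promoter is a description only.

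At 3 months the C1q genes had their lowest means in the testis, where C1qa had 5.22 ± 0.70 CPM (SD, n = 4), C1qb 13.3 ± 1.31 CPM and C1qc 6.31 ± 0.77 CPM. For C1qa and C1qc this was below the caput, next in order (adjusted p = 5.13e-09 and 0.000558), and for C1qb it was not (adjusted p = 0.127). The spread in this fit took in replicate 3 of the cauda, which was high for C1qb. Between caput and cauda the SE of C1qb was 0.35 with that library and 0.15 without. For C1qb, testis against caput and initial segment against vas deferens were not tested without it. The cauda had the highest means, 61.25 ± 30.98 CPM for C1qa, 130.1 ± 137.2 CPM for C1qb and 81.0 ± 72.9 CPM for C1qc, and each was above the corpus, next in order, in the test over the 28 libraries (adjusted p = 0.00749, 0.0017 and 0.00583). The size of this lead and its calls rested on replicate 3. C1qb read 59.9, 52.8, 327.7 and 53.55 CPM in cauda replicates 1 to 4, C1qa 43.1, 38.3, 105.0 and 42.4 CPM, and C1qc 41.3, 41.25, 185.8 and 37.95 CPM. Replicate 3 was the highest for each gene, and the other 3 libraries lay close together. Without it the cauda means were 43.2 ± 2.80 CPM for C1qa, 58.1 ± 4.16 CPM for C1qb and 42.1 ± 1.98 CPM for C1qc, still the highest of the 7 regions, and the adjusted p against the corpus was 0.366, 0.251 and 0.616. Corpus, initial segment and efferent ductules followed, with no difference between successive places for any C1q gene. The vas deferens and caput, at 22.3 and 20.01 CPM of C1qa, came next and did not differ from each other, and the step down to them passed for C1qa and C1qc but not for C1qb. At 21 months the order had changed: the efferent ductules had the highest means, 66.4 ± 14.85 CPM of C1qa, 72.0 ± 18.4 CPM of C1qb and 86.0 ± 14.7 CPM of C1qc, and for C1qc this was above the initial segment, next in order (adjusted p = 0.00248).

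With age all 3 C1q genes rose in the efferent ductules and the initial segment, and C1qa and C1qc rose in the vas deferens. Efferent ductule C1qc read 46.4, 43.5, 35.3 and 39.9 CPM at 3 months and 121.2, 78.7, 91.3 and 108.8 CPM at 21 months. The ages did not overlap, and the log2 fold change was 1.28 ± 0.15 (SE, adjusted p = 0.00422). C1qa read 39.6, 40.2, 32.8 and 38.9 CPM against 102.5, 65.8, 61.0 and 79.8 CPM, a log2 fold change of 1.03 ± 0.16 (adjusted p = 0.00907), again with every old library above every young one. C1qb rose by 0.92 ± 0.18 on the log2 scale (adjusted p = 0.0174), from 36.7 to 49.0 CPM to 66.2 to 116.8 CPM; its call was lost without replicate 1, 3 or 4 of the 3-month group (log2 fold change 0.84 to 0.98, adjusted p = 0.0563 to 0.0595) and in a fit of all 56 libraries. The summed level of the 10 macrophage markers was 416 to 456 CPM at 3 months and 493 to 694 CPM at 21 months in the efferent ductules, where 3 of the 10 markers rose and 1 fell, none of them at 0. The 6 fibroblast markers summed to 2408 to 2842 CPM and 1157 to 1559 CPM, with 2 of 6 called lower. The share of Gm42418 also separated the ages there, at 1.27% to 3.295% against 4.93% to 22.2% of counts. The part of these markers and of what the Gm42418 share reflects in the C1q and Cfd results was not tested. Without replicates 2 and 3 at 21 months, where the initial segment genes were high, the log2 fold changes were 1.29 ± 0.11 for C1qa, 1.19 ± 0.13 for C1qb, 1.499 ± 0.10 for C1qc and -1.27 ± 0.24 for Cfd (adjusted p = 2.3e-05, 0.000122, 9.01e-06 and 0.00265), with 27.1% of all genes then called. In bulk tissue fewer cells of a type and less RNA per cell cannot be told apart.

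In the initial segment C1qa read 35.9, 33.85, 34.75 and 36.0 CPM at 3 months and 52.5, 49.6, 69.3 and 55.1 CPM at 21 months. The young libraries were tightly grouped and lay below every old one, and the log2 fold change was 0.69 ± 0.10 (adjusted p = 0.000882). C1qb rose by 0.61 ± 0.13 and C1qc by 0.55 ± 0.11 on the log2 scale (adjusted p = 0.0102 and 0.00963), also without overlap. The macrophage markers summed to 223 to 244 CPM and 254 to 282 CPM at the younger and older age, with 1 of 10 called higher, and Ptprc rose by 0.81 on the log2 scale. Of 6 spermatid markers 6 were called lower there (median log2 fold change -2.41, sums of 30.4 to 100.1 CPM against 8.85 to 24.9 CPM), and 3 of 6 fibroblast markers. Their part was not tested. In a fit of all 56 libraries, where regions share an estimate of the spread, none of the C1q genes was called in the initial segment (adjusted p = 0.14 to 0.473). That spread took in replicate 3 of the cauda at 3 months. For the age effect here against the mean of the other 6 regions, the SE of C1qb was 0.32 with that library and 0.20 without. For C1qc the SE was 0.29 and 0.20. The calls of the initial segment in that fit without this library were not tested.

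In the vas deferens C1qc read 17.4, 21.9, 22.9 and 15.9 CPM at 3 months and 39.0, 47.3, 27.9 and 41.9 CPM at 21 months. Its lowest old library was still above its highest young one, and the log2 fold change was 0.9985 ± 0.17 (adjusted p = 0.00315). C1qa rose by 0.59 ± 0.17 (adjusted p = 0.0313), with the ages overlapping at replicate 3 of the older group. This call was lost without replicate 1 or 4 of the 3-month group or replicate 1 or 2 of the 21-month group, with log2 fold changes of 0.50 to 0.55 and adjusted p of 0.0667 to 0.0952. C1qb had a log2 fold change of 0.41 ± 0.17 (adjusted p = 0.115) and was called without replicate 3 of the 21-month group (0.55, adjusted p = 0.0224). The macrophage markers summed to 300 to 410 CPM at 3 months and 256 to 408 CPM at 21 months, with 2 of 10 called higher and 0 lower. Ptprc went from 33.6 to 40.05 CPM to 56.5 to 206.9 CPM and was called. The 6 seminal vesicle markers summed to 0.79 to 2.16 CPM at 3 months and 13.3 to 2058 CPM at 21 months in the vas deferens. Their part in any vas deferens result was not tested.

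The C1q genes passed the test in no other region. In the testis C1qc went from 6.00 ± 0.75 CPM to 8.32 ± 0.28 CPM without overlap (log2 fold change 0.47 ± 0.12, adjusted p = 0.0752) and was called without replicate 4 of the 3-month group (0.53, adjusted p = 0.0481). In the caput C1qc read 14.3 to 15.8 CPM and 16.1 to 21.0 CPM without overlap (log2 fold change 0.31 ± 0.12, adjusted p = 0.122), C1qb had 0.37 ± 0.15 (adjusted p = 0.1415) and C1qa 0.02 ± 0.17. In the corpus the log2 fold changes lay between -0.08 and 0.05. In the cauda the estimates were -0.36 ± 0.37 for C1qa, -1.24 ± 0.60 for C1qb and -1.0044 ± 0.55 for C1qc (adjusted p = 0.745, 0.504 and 0.558), and without replicate 3 of the younger group they were 0.12, -0.08 and -0.07.

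**Figure D2:**
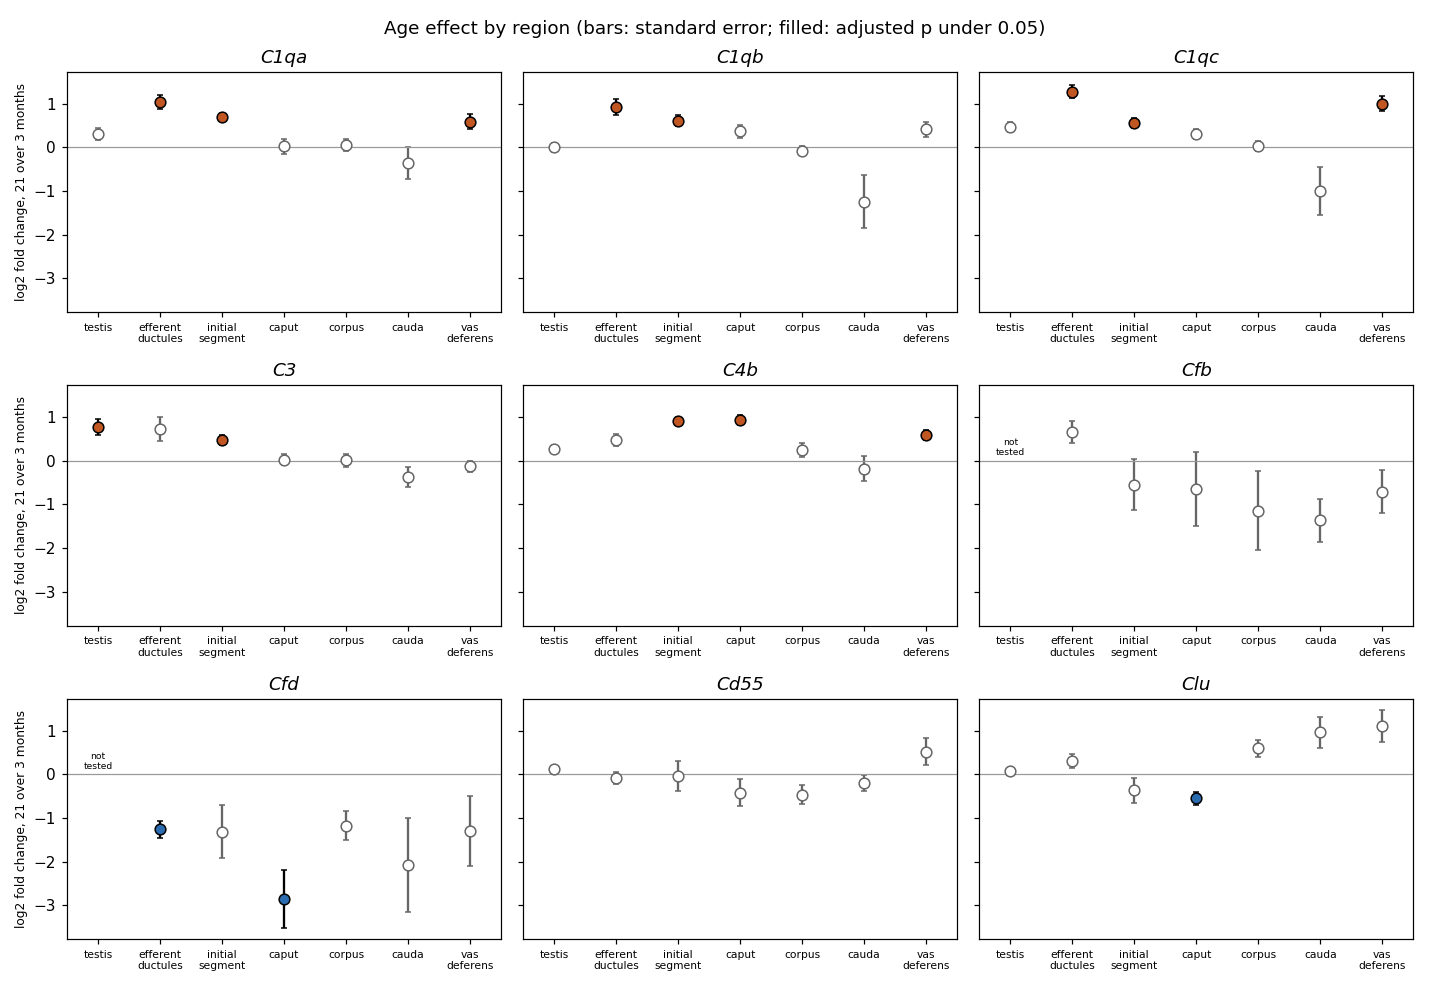
Log2 fold change of each gene from 3 to 21 months (vertical axis, log2 units) in the 7 regions (horizontal axis), with the standard error as bars and filled points where the adjusted p was under 0.05. The C1q genes lie above 0 with filled points in the efferent ductules and initial segment and below 0 with wide bars in the cauda, Cfd lies below 0 in the 6 regions where it was tested, and Clu changes sign between the caput and the regions after it.

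C3, the central component, lies on the minus strand of chromosome 17 at chr17:57203970-57228136. At 3 months the vas deferens had 949.1 ± 175.7 CPM, the corpus 713.6 ± 122.5 CPM, the cauda 646.7 ± 144.4 CPM and the efferent ductules 545.2 ± 93.4 CPM, and no neighbours in this order differed. Between places farther apart, the vas deferens was above the cauda and the efferent ductules (adjusted p = 0.0103 and 0.000242). The caput with 148 ± 10.02 CPM and the initial segment with 129 ± 21.1 CPM followed at a lower level (efferent ductules against caput, log2 difference -1.88, adjusted p = 1.53e-10) and did not differ from each other. The testis had 6.20 ± 1.83 CPM. The stretch of 250 bases before its RefSeq start (chr17:57228137-57228386, minus strand, GRCm38.p6) is shown since C3 differs so much between regions, with a match to TTGCNNAA, a core of C/EBP sites, in capitals at bases -45 to -38.
C3: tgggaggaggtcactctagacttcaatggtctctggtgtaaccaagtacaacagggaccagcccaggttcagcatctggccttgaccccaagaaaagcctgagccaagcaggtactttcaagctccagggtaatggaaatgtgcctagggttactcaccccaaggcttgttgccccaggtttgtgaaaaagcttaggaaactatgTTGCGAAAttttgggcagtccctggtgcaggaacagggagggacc
The core is held by 10.8% of the promoters. The other motifs searched in the 5 member promoters were GGG and CC spaced by 5 free bases, of the NF-kB type, found in 5 (50.8% of all promoters), GAANNTTC of the heat shock type, found in C1qb (7.86%), TATAAA, found in C3 after its start (13.6%), GAAA and GAAA spaced by 2 free bases, of the interferon response type, found in 0 (3.44%), and TTCNNNGAA of the STAT type, found in 0 (8.3%). No match of another motif overlapped the capitals.

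With age C3 rose in the testis and the initial segment. In the testis it read 4.96, 6.11, 4.26 and 8.27 CPM at 3 months and 7.15, 8.95, 11.8 and 12.4 CPM at 21 months, so that the ages overlapped in single libraries. The log2 fold change was 0.77 ± 0.17 (adjusted p = 0.0384). It was called in 2 of the 8 fits that left out a library: the call was lost without replicate 1, 2 or 3 of the younger group or 2, 3 or 4 of the older (log2 fold change 0.65 to 0.83, adjusted p = 0.0775 to 0.173), and also under edgeR's own filter on low counts (adjusted p = 0.0653) and in the fit of all 56 libraries (adjusted p = 0.621). In the initial segment the values were 124, 121, 103 and 156.5 CPM against 186.5, 148.8, 185.6 and 183 CPM, with a log2 fold change of 0.48 ± 0.11 (adjusted p = 0.0186), and the call was lost without replicate 1, 2 or 3 of the younger group or 3 or 4 of the older (0.41 to 0.47, adjusted p = 0.0509 to 0.0662) and in the fit of all 56 (0.34, adjusted p = 0.403). In the efferent ductules C3 read 574, 728, 415 and 676.5 CPM against 1478, 813, 1108 and 561 CPM, a log2 fold change of 0.73 ± 0.27 that missed the threshold (adjusted p = 0.131) and was called without replicate 4 of the older group (0.92, adjusted p = 0.0493) and in the fit of all 56 (0.66, adjusted p = 0.0275). In the caput, corpus and vas deferens the estimates lay between -0.13 and 0.02, and in the cauda the estimate was -0.37 ± 0.23 (adjusted p = 0.586) and, without replicate 3 at 3 months, -0.16 ± 0.19. Of the markers in the testis, 2 of 6 for fibroblasts were called lower (median log2 fold change -0.50) and 1 of 10 for macrophages higher. Their part in the testis results was not tested.

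C4b encodes the C4 protein that C1-associated proteases cleave, and lies at chr17:34728380-34743882 on the minus strand. Reads of C4b and of its near-identical neighbour C4a can be hard to tell apart, and how the counting treated them is not stated. At 3 months it was highest in the efferent ductules, 231 ± 18.4 CPM, above the cauda with 109 ± 30.1 CPM (adjusted p = 1.33e-06). The corpus had 83.7 ± 17.03 CPM, the vas deferens 57.9 ± 8.52 CPM, and the initial segment, testis and caput lay between 23.9 and 27.98 CPM. These last 3 were below the vas deferens (initial segment against vas deferens, adjusted p = 3.26e-06), with no difference between successive places among them. Cauda and corpus did not differ (adjusted p = 0.0819), while corpus and vas deferens did (adjusted p = 0.00745).

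With age C4b rose in the initial segment, caput and vas deferens. In the caput it read 26.9, 19.7, 23.5 and 23.6 CPM at 3 months and 45.7, 41.0, 51.3 and 43.0 CPM at 21 months. All 4 old libraries were above all 4 young ones, and the log2 fold change was 0.94 ± 0.12 (adjusted p = 0.000908). In the initial segment the values were 26.8, 25.4, 29.1 and 28.7 CPM against 50.7, 44.8, 48.6 and 61.6 CPM, a log2 fold change of 0.91 ± 0.10 (adjusted p = 0.00011), again without overlap. In the vas deferens 66.3, 79.5, 75.9 and 58.7 CPM became 95.7, 120.0, 92.6 and 112 CPM, a log2 fold change of 0.59 ± 0.12 (adjusted p = 0.00623). These 3 calls were kept in each of the 8 fits that left out a library of the region and in each of the 8 other settings tried. The 6 fibroblast markers went the other way in these regions, from 661 to 1173 CPM to 401 to 431 CPM in the caput, with 2 of 6 called lower, from 908 to 1346 CPM to 695 to 799 CPM in the initial segment, with 3 of 6, and from 2091 to 2489 CPM to 942 to 1473 CPM in the vas deferens, with 5 of 6. Ptprc was called higher in the same 3 regions, by 0.81 in the initial segment, 0.84 in the caput and 1.54 in the vas deferens on the log2 scale. In the caput 3 of 10 macrophage markers rose, with sums of 163 to 195 CPM at 3 months and higher ones, up to 222.5 CPM, in every library at 21 months. The part of these cell types in the C4b result was not tested. In the efferent ductules C4b had a log2 fold change of 0.48 ± 0.14 (adjusted p = 0.0622) with no overlap of the ages, and was called without replicate 4 of the older group (0.57, adjusted p = 0.0392) and without replicates 2 and 3 (0.41, adjusted p = 0.0404). In the testis the ages did not overlap either, at 25.1 ± 3.83 and 30.3 ± 1.54 CPM (log2 fold change 0.27 ± 0.09, adjusted p = 0.217). In the cauda the estimate was -0.18 ± 0.28, and 0.07 ± 0.27 without replicate 3 at 3 months.

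Cfb and Cfd encode the serine proteases of the alternative pathway. Cfb lies at chr17:34856374-34862518 on the minus strand and shares 2246 of its 2825 exon bases with the readthrough gene Gm20547, whose count was 0 in every library, so low values of Cfb can reflect how shared reads were assigned. It had 3.22 ± 0.59 CPM in the efferent ductules at 3 months and at most 0.35 CPM as a mean in the other regions, among which successive places did not differ apart from the step to the testis. Its count was 0 in all 8 testis libraries, which allows up to 3 counts or 0.152 to 0.177 CPM per library, counting error alone. In the efferent ductules it read 3.92, 2.85, 3.725 and 3.425 CPM at 3 months and 4.32, 3.70, 7.725 and 6.13 CPM at 21 months. The ages overlapped and the log2 fold change of 0.65 ± 0.25 missed the threshold (adjusted p = 0.138). In the 5 regions after it, between 6 and 26 counts per group stood behind the estimates, which ran from -1.37 to -0.55 with adjusted p of at least 0.3425. The lowest, -1.37 in the cauda, was -1.37 without replicate 3 at 3 months as well.

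Cfd lies at chr10:79890853-79892655 on the plus strand. At 3 months it stood at 250 ± 51.0 CPM in the efferent ductules, above the corpus with 39.3 ± 26.4 CPM (adjusted p = 0.000196) and the vas deferens with 34.4 ± 19.4 CPM, which did not differ from the corpus. The cauda, caput and initial segment had 6.48, 3.27 and 1.84 CPM, and the testis 3 counts in its 4 libraries. With age Cfd fell in the efferent ductules and caput. In the efferent ductules it read 240, 352, 194 and 310.2 CPM at 3 months and 141, 112, 119.6 and 84.0 CPM at 21 months. Every old library was below every young one, and the log2 fold change was -1.26 ± 0.20 (adjusted p = 0.00997), a call that was lost in the fit of all 56 libraries (-1.33, adjusted p = 0.182). In the caput it read 1.54, 4.25, 6.285 and 1.08 CPM against 1.05, 0.502, 0.0444 and 0.257 CPM, with a log2 fold change of -2.86 ± 0.67 (adjusted p = 0.0228). These values rest on 194 and 32 counts, the nearest libraries of the ages almost touched, and the call was lost without replicate 3 of the younger group or 2, 3 or 4 of the older (log2 fold change -2.92 to -2.22, adjusted p = 0.0622 to 0.0819) and in the fit of all 56 (adjusted p = 0.1001). The estimates in the other 4 regions tested were also negative, from -2.08 in the cauda (-2.44 without its replicate 3 at 3 months) to -1.18 in the corpus, and did not pass (adjusted p = 0.0741 to 0.529). Of these, the corpus passed without replicate 1 or 4 of the younger group (-1.41 and -1.37, adjusted p = 0.0198 and 0.0361) and the vas deferens without replicate 1 of the older (-2.53, adjusted p = 0.0418).

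Adipocyte markers were lower beside Cfd in the efferent ductules, and in the caput, the other region where Cfd was called, none of them was called lower. In the efferent ductules the 10 markers summed to 501 to 876 CPM at 3 months and 237 to 563 CPM at 21 months, with 4 of 10 called lower and a median log2 fold change of -0.89; no marker was at 0. In the corpus the sums were 43.05 to 158.7 CPM and 36.0 to 68.0 CPM with 3 of 10 lower, and in the vas deferens 58.4 to 207.4 CPM and 37.2 to 120.1 CPM with 2 of 10 lower. In the caput they were 16.6 to 31.9 CPM and 16.8 to 19.8 CPM with 0 of 10 lower and 1 higher, and a median log2 fold change of -1.07. In the cauda they were 33.5 to 65.0 CPM and 15.9 to 39.4 CPM with 0 called and a median of -1.81, and in the testis 0 were called as well. In the initial segment, where Cfd was not called, 1 of 10 was lower (median -0.71). Fat was trimmed off at dissection according to the methods, and the part of remaining fat in the Cfd result was not tested.

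**Figure D3:**
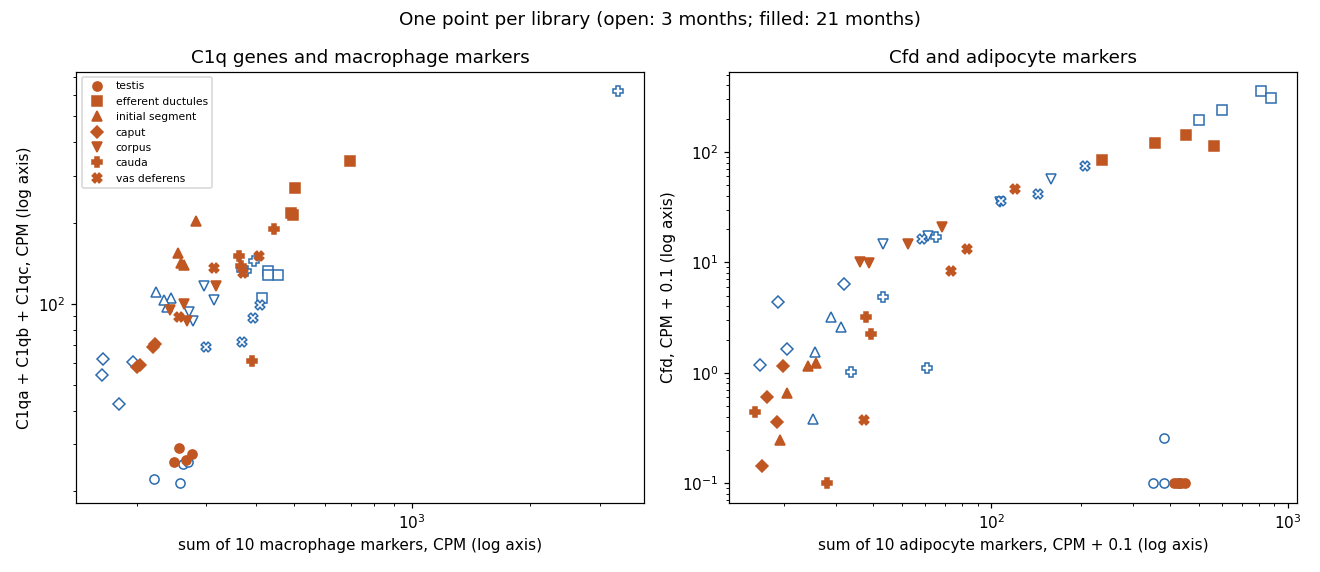
Left, the summed C1q genes (C1qa, C1qb and C1qc, CPM, log axis) against the summed 10 macrophage markers (CPM, log axis); right, Cfd against the summed 10 adipocyte markers (CPM plus 0.1, log axes), with a point per library, open at 3 months and filled at 21 months, and a symbol per region. Cauda replicate 3 at 3 months is the point at the upper right of the left plot (618.5 and 3345 CPM), the old efferent ductules lie at 215 to 340.5 CPM of C1q, and in the right plot the testis lies apart, with marker sums of 351 to 449.8 CPM and Cfd at or near 0.

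Cd55, the membrane inhibitor, lies at chr1:130439027-130462744 on the minus strand and has a near-identical neighbour, Cd55b. At 3 months it was highest in the testis with 33.7 ± 2.11 CPM, above the cauda with 21.6 ± 0.70 CPM (adjusted p = 0.00514). Efferent ductules and vas deferens, with 18.8 and 18.7 CPM, did not differ from the cauda or from each other, and corpus (9.57 ± 2.93 CPM), caput (4.80 ± 2.33 CPM) and initial segment (4.79 ± 0.26 CPM) were lower, the last 2 indistinguishable. With age Cd55 passed the test in none of the 7 regions; the estimates ran from -0.47 ± 0.22 in the corpus to 0.51 ± 0.31 in the vas deferens, and the adjusted p in the corpus was 0.279. With library sizes alone as the scale, Cd55 was called lower in the efferent ductules (-0.45, adjusted p = 0.0352). In the vas deferens at 21 months it read 25.55, 21.7, 22.0 and 60.2 CPM against 29.6, 22.1, 19.7 and 19.3 CPM at 3 months. Replicate 4 stood apart and was also the library with the highest Ptprc, 206.9 CPM; without it the log2 fold change was 0.03. The cauda estimate was -0.20 ± 0.18, and -0.17 ± 0.18 without replicate 3 at 3 months.

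Clu, the soluble inhibitor, lies at chr14:65968483-65981547 on the plus strand. Its counts ran from 1587 to 276181 per library, and the upper end was the largest single count of the 9 genes. In the efferent ductules and corpus C3 had more counts than Clu. At 3 months the caput had 15360 ± 1446 CPM, more than the cauda with 2891 ± 1387 CPM (log2 difference -2.41, adjusted p = 3.17e-07). The vas deferens with 1298 ± 508.9 CPM came next (adjusted p = 0.00325 against the cauda), then the testis with 717.7 ± 33.8 CPM and the initial segment with 655.9 ± 384.2 CPM, which did not differ. The corpus with 202 ± 44.6 CPM and the efferent ductules with 151 ± 19.0 CPM were lowest and did not differ from each other. Between the adjoining initial segment, caput, corpus and cauda the log2 steps were 4.55 ± 0.35, -6.25 ± 0.38 and 3.84 ± 0.34. The order of the regions was the same at 21 months, when corpus and efferent ductules differed (adjusted p = 0.0194).

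With age Clu fell in the caput. It read 13270, 17190, 13850 and 16610 CPM at 3 months and 9811, 9787, 11760 and 10170 CPM at 21 months. All old libraries were below all young ones, and the log2 fold change was -0.55 ± 0.14 (adjusted p = 0.0332). The call was close to the threshold and was lost without replicate 4 of the younger group or without any library of the older (log2 fold change -0.62 to -0.50, adjusted p = 0.064 to 0.116), and with library sizes alone as the scale (-0.31, adjusted p = 0.738) and in the fit of all 56 libraries (-0.49, adjusted p = 0.409). Of 6 spermatid markers 2 were called lower in the caput, with sums of 90.7 to 127.6 CPM at 3 months and 74.4 to 82.5 CPM at 21 months, and their part was not tested. Farther along the tract the estimates had the other sign and did not pass. In the cauda Clu read 3665, 3529, 1040 and 2278 CPM against 5000, 3498, 5604 and 6304 CPM (log2 fold change 0.96 ± 0.35, adjusted p = 0.375), the lowest value being that of replicate 3, without which it was 0.69 ± 0.22 (adjusted p = 0.299). In the vas deferens it read 1057, 2428, 1514 and 1282 CPM against 1370, 4092, 2614 and 5404 CPM, a log2 fold change of 1.10 ± 0.37 (adjusted p = 0.0607) that was called without replicate 2 of the younger group or replicate 1 of the older (1.39 and 1.36, adjusted p = 0.0417 and 0.0135) and in the fit of all 56 (1.16, adjusted p = 0.00803). In the corpus the estimate was 0.60 ± 0.20 (adjusted p = 0.123), in the initial segment -0.37 ± 0.28, and in the testis, with 682 ± 31.9 and 719 ± 47.4 CPM, 0.08 ± 0.05.

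Counted over the 9 genes, 16 of the 61 tests passed, 13 rising and 3 falling, as Cfb and Cfd had too few counts to be tested in the testis. In the testis 1 rose and 0 fell, against 0.563% of all genes called, 0.353% rising and 0.21% falling. For the efferent ductules the counts were 3 rising and 1 falling, against 6.99% called, 4% rising and 2.98% falling, and the median log2 fold change of the 9 was 0.65 against -0.04 for all genes. In the initial segment 5 rose and 0 fell, against 6.35% called, 3.35% rising and 3.01% falling, with a median of 0.48 against -0.01. In the caput 1 rose and 2 fell, against 8.14% called, 3.09% rising and 5.05% falling, with a median of 0.02 against -0.01. In the corpus 0 were called, against 2.97% of all genes, 1.5% rising and 1.47% falling. The cauda likewise had 0, against 0.128%, 0.07% rising and 0.0583% falling. Of the 9, 3 in the corpus and 2 in the cauda had an unadjusted p under 0.05, against 17.3% and 10.5% of all genes, and DESeq2 also called 0 in both regions. Without replicate 3 of the cauda at 3 months 3 of the 9 did there, against 9.21%, and 0 were called, against 0.346%. In the vas deferens 3 rose and 0 fell, against 19.9% called, 11.4% rising and 8.47% falling, a share of the 9 not far from the background, with a median of 0.51 against 0.02. Every old library lay on one side of every young one for 5 of the 9 genes in the efferent ductules (17.8% of all genes), 4 in the caput (16.9%), 4 in the initial segment (12.4%), 2 in the vas deferens (25%), 2 of the 7 tested in the testis (6.31%), 1 in the cauda (8.46%) and 0 in the corpus (10.2%). With library sizes alone as the scale, the median of all genes became -0.38 (efferent ductules), 0.19 (caput) and -0.17 (corpus). The split of rising and falling genes was then 3 and 2 in the efferent ductules, 1 and 1 in the caput and 0 and 1 in the corpus. In a single fit of all 56 libraries 7 of the 16 calls were kept and 9 were lost, while 4 others appeared, C3 rising in the efferent ductules, Clu rising in the vas deferens, and C1qb and C1qc falling in the cauda, where replicate 3 of the younger group was high. That library also entered the spread of the C1q genes in this fit, and the calls of the fit without it were not tested. By a looser rule, an unadjusted p below 0.05 with at least a 1.5-fold change, 21 of the 61 passed, 16 rising and 5 falling. They were 6 in the efferent ductules (12.8% of all genes), 4 in the vas deferens (17.8%), 4 in the initial segment (11.5%), 2 in the corpus (6.84%), 2 in the caput (13.2%), 2 in the cauda (8.3%) and 1 in the testis (2.71%). Without replicate 3 at 3 months the cauda had 3 (7.03%).

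The age effect differed between the 7 regions for 6 of the 9 genes in a test over all 56 libraries, against 20.2% of all genes: C1qa (adjusted p = 0.0135), C1qb (0.0052), C1qc (0.000647), C3 (0.0174), C4b (0.0114) and Clu (0.00945). This test took the libraries as independent, although the regions came from the same mice according to the methods. All 6 passed without replicate 3 of the cauda at 3 months as well; without the libraries numbered 1, or those numbered 2, 3 passed. Set against the mean of the other 6 regions, the age effect of C1qc in the efferent ductules was larger by 0.97 ± 0.29 on the log2 scale (adjusted p = 0.0467, 1 of 9 genes against 3.76% of all genes), and that of C4b in the caput by 0.63 ± 0.20 (adjusted p = 0.0445, 1 of 9 against 6.94%). Without replicate 3 of the cauda at 3 months these 2 differences were 0.83 ± 0.20 and 0.59 ± 0.19 (adjusted p = 0.0101 and 0.0443), and 3 more passed: C1qa and C1qb in the efferent ductules (0.66 ± 0.19 and 0.65 ± 0.20, adjusted p = 0.0346 and 0.0454) and C1qc in the vas deferens (0.66 ± 0.20, adjusted p = 0.0313). In the cauda 3 of the 9 passed, against 2.3% of all genes: C1qb (-1.56 ± 0.32), C1qc (-1.56 ± 0.29) and C4b (-0.72 ± 0.20). None of these passed without replicate 3 of the younger group, where the differences were -0.48, -0.70 and -0.52 (adjusted p = 0.323, 0.143 and 0.252). In the vas deferens Clu passed, 1 of 9 against 7.7%, with a difference of 1.01 ± 0.33 (adjusted p = 0.0475), and did not without replicate 4 of the older group (0.71, adjusted p = 0.269). In the testis, initial segment and corpus 0 of the 9 passed, against 0.0649%, 1.9% and 0.124% of all genes.

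Beside the 9 genes, 42 further genes of the complement system were followed from recognition to receptors, and 25 of the 258 tests on them passed, 11 rising and 14 falling. Rising and falling genes numbered 1 and 0 of 40 tested for the testis, 4 and 1 of 36 for the efferent ductules, 2 and 2 of 37 for the initial segment. The caput had 0 and 2 of 36, the corpus 1 and 2 of 36, the cauda 0 and 0 of 37, the vas deferens 3 and 7 of 36. The share called was above that of all genes for the testis (2.5% against 0.563%), efferent ductules (13.9% against 6.99%) and initial segment (10.8% against 6.35%). It was also above for the corpus (8.33% against 2.97%) and vas deferens (27.8% against 19.9%). The caput share was below, at 5.56% against 8.14%, and the cauda had 0% against 0.128%. Whether the list differed from all genes was not tested. In the cauda 10 of the 37 had an unadjusted p under 0.05 in edgeR, against 10.5% of all genes, and DESeq2 called 1. Without replicate 3 at 3 months these were 3 of 37, against 9.21%. The list's median log2 fold change was 0.20 for the efferent ductules, 0.11 for the initial segment and between -0.11 and 0.08 elsewhere. Itgb2, the shared beta chain of the complement receptors CR3 and CR4, rose in 3 regions: by 1.22 ± 0.25 in the efferent ductules (from 9.705 to 22.6 CPM, adjusted p = 0.0217), 0.71 ± 0.16 in the initial segment (adjusted p = 0.0186) and 1.02 ± 0.19 in the vas deferens (adjusted p = 0.00553). Itgax, the alpha chain of CR4, rose by 1.60 ± 0.33 in the efferent ductules (from 2.51 to 7.63 CPM, adjusted p = 0.0226). Cr2, the receptor for C3 fragments on B cells, rose by 1.44 ± 0.41 in the vas deferens (from 6.63 to 18.05 CPM, adjusted p = 0.0323). Leaving out a library of the efferent ductules took the list's calls there to as few as 1. Itgb2 and Itgax were therefore not both called in that fit. For the initial segment the lowest count was also 1, so Itgb2 and Masp2, given below, were not both kept. For the vas deferens it was 7, and whether Itgb2 and Cr2 were kept there is not given.

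Among the other components and regulators in that list, C7, of the terminal complex, rose in the testis by 0.35 ± 0.07 (from 69.4 to 88.5 CPM, adjusted p = 0.0216) and fell in the corpus (log2 fold change -0.59 ± 0.14, from 182.8 to 121.7 CPM, adjusted p = 0.0241). The testis call was the only one of the list there. It was lost in at least 1 fit that left out a testis library and in the fit of all 56 libraries. Susd4, a membrane inhibitor, rose in the corpus by 0.72 ± 0.15 (adjusted p = 0.0172). Without replicate 3 of the corpus at 3 months 0 of the list were called there, so the corpus calls of C7 and Susd4 were lost. Masp2, the lectin pathway protease, rose in the initial segment by 2.22 ± 0.32 (adjusted p = 0.00127) and fell in the caput (log2 fold change -1.98 ± 0.36, adjusted p = 0.00691), from 27 to 114 and from 104 to 32 counts. Masp2 overlaps Tardbp on the opposite strand over 1817 of its 3307 exon bases, and the strand setting of the counting is not stated, so its reads cannot be assigned with certainty. Fibroblast markers, among which C7 is not counted, were lower at 21 months in the corpus, with 6 of 6 called and sums of 999.5 to 1833 CPM against 437 to 608 CPM; their part was not tested.

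**Figure D4:**
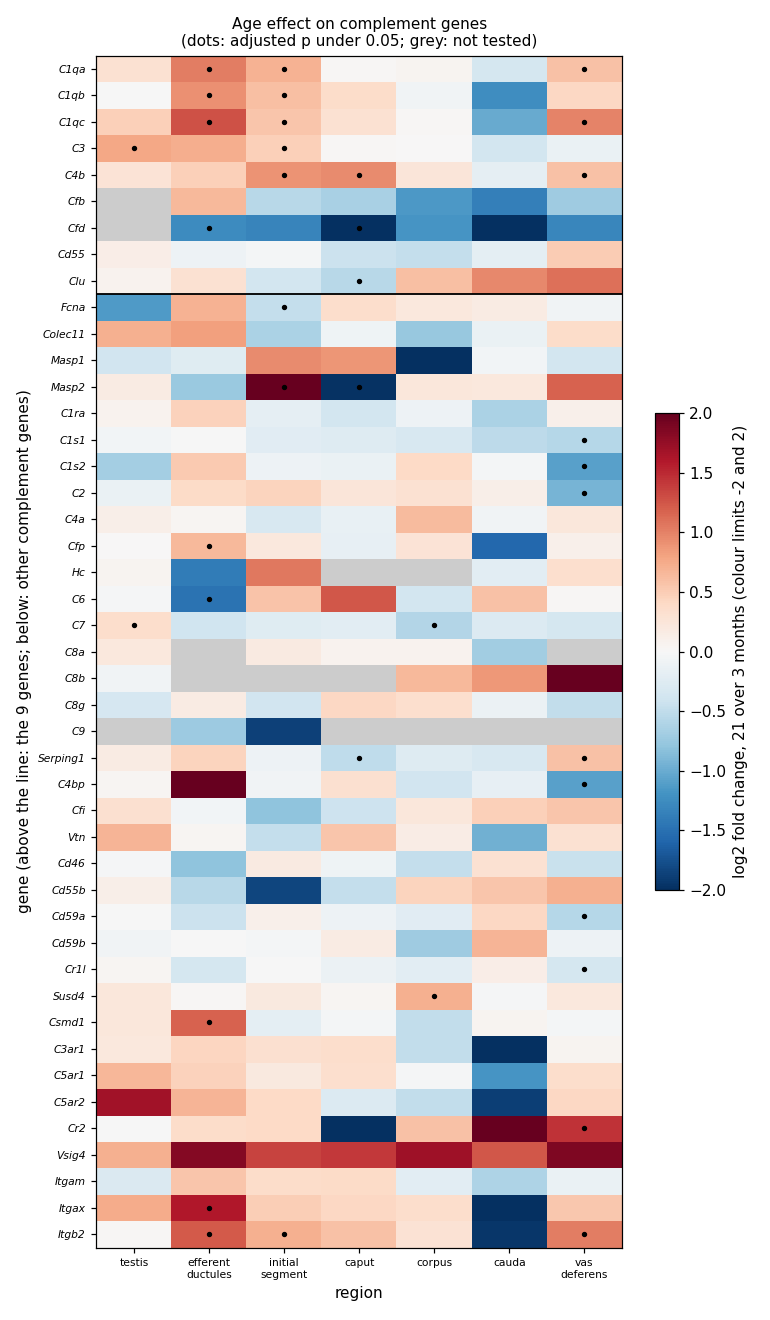
Log2 fold change from 3 to 21 months (colour, log2 units, limits -2 and 2) of the 9 genes, above the line, and of 36 of the 42 further complement genes, below it, in the 7 regions. Dots mark an adjusted p under 0.05 and grey cells were not tested; Itgb2 has dots in the efferent ductules, initial segment and vas deferens, and C7 in the testis and corpus.

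Over the 14 group means, among 24955 genes, those with the pattern most like a member's were listed by Pearson's r of log2(CPM + 1), with no test, as the points share mice and libraries. For Cfd they were Car3 (0.99), Fabp4 (0.99) and Cidec (0.99), of which Fabp4 and Cidec are in the adipocyte list. For C1qb they were Tyrobp (0.97), Tnfaip8l2 (0.97) and Selenop (0.96). C1qa had C1qc (0.96), Cers2 (0.95) and Marc2 (0.95), and C1qc had C1qa (0.96), C1qb (0.96) and P2ry6 (0.96). C3 had Adm (0.99), Prss23 (0.99) and Igf2r (0.98), and C4b had Selenbp1 (0.95), Cyp2d22 (0.95) and Nfam1 (0.95). Cfb had Gm9925 (0.99), Tmem174 (0.98) and Hnf1aos2 (0.98), where the efferent ductules set the correlation, as Spearman's rho was 0.63, 0.58 and 0.61. Cd55 had Map6 (0.97), Sept6 (0.96) and Oplah (0.95). Clu had the lowest values, 0.91 for 9430065F17Rik, 0.90 for Gm10152 and 0.90 for Fth-ps2.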

How the data were processed

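The authors counted reads per Ensembl gene and deposited whole-number counts without normalization. Their methods give a stranded total RNA kit, paired-end reads and alignment with HISAT2 to GRCm38, and the submitters' processing notes also name HTSeq and cutadapt. Versions, counting mode and strand setting are not given in the sources used here. The descriptions gave the region, age and replicate number of each library. Symbols, positions and overlaps came from GENCODE M21, and promoters from RefSeq on GRCm38.p6. Genes with 10 or more counts in total were tested with edgeR 4.0.16 in R 4.3.3 (TMM, quasi-likelihood F-test, Benjamini-Hochberg over all genes tested). Age was fitted per region, regions per age, and the region-by-age interaction over all 56 libraries. The main fits over several regions took libraries as independent, although the regions came from the same mice. A call is an adjusted p under 0.05. DESeq2 1.42.0, other scalings and filters, a replicate block and fits without a library were alternatives. The procedure was tested on simulated data. The median library had 16384049 counts, and the depth of the low genes limits their precision. Replicate pairs differed by more than sampling noise. The members, lists and motifs were chosen with earlier results of these data known. All 9 members are named. Of the 42 further genes, those called the same way in at least 3 regions and the largest called change of each region are named, and for each member the 3 most similar genes. A gene of that list which met this rule is counted but not reported by name here.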

Additional observations from a re-analysis of the deposited data

Results flagged for a closer look

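In 8 of 123 sets of 4 libraries a library stood far from the other 3 by Dixon's test, where chance gives about 6.2. Of these, 3 come from replicate 3 of the cauda at 3 months, with 105.0 CPM of C1qa, 327.7 CPM of C1qb and 185.8 CPM of C1qc. The others were C3 in replicate 2 of the initial segment at 21 months (148.8 CPM, low), C4b in replicate 3 of the testis at 3 months (19.4 CPM, low), Cfd in replicate 2 of the testis at 3 months (0.157 CPM, the single library of the 8 with reads), Cd55 in replicate 4 of the vas deferens at 21 months (60.2 CPM, high) and Clu in replicate 4 of the initial segment at 3 months (1236 CPM, high).

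The age effect differed among the 7 regions for C1qa (adjusted p = 0.0135), C1qb (0.0052), C1qc (0.000647), C3 (0.0174), C4b (0.0114) and Clu (0.00945), by edgeR's interaction test. Against the mean of the other 6 regions, the log2 age effect differed by 0.97 for C1qc in the efferent ductules, 0.63 for C4b in the caput, -1.56 for C1qb, -1.56 for C1qc and -0.72 for C4b in the cauda, and 1.01 for Clu in the vas deferens. Without replicate 3 of the cauda at 3 months the cauda differences were -0.48, -0.70 and -0.52 and none passed, and without replicate 4 of the vas deferens at 21 months that of Clu was 0.71 (adjusted p = 0.269).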

How the results depend on the processing

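None of the 16 called log2 fold changes of the 9 genes changed sign under the alternatives tried, and 38 values of fold changes that were not called did. Counts of the 9 genes called with age that moved by more than 1.5 times were, in the testis (1), 2 with DESeq2, 0 with edgeR's own filter, 2 with no filter and 0 in the fit of all 56 libraries; in the initial segment (5), 1 in that fit; in the caput (3), 1 in that fit; in the corpus (0), 1 by library size only, 2 with no filter, 1 with the replicate block and 2 by the rule of an unadjusted p under 0.05 and 1.5-fold; and in the cauda (0), 2 in the fit of all 56 and 2 by that rule. Leaving out a library in turn gave 0 to 2 (testis), 3 to 6 (efferent ductules) and 4 to 5 (initial segment), 1 to 3 in the caput, 0 to 1 in the corpus, 0 to 0 in the cauda and 2 to 4 in the vas deferens. For the 42 further genes the counts were, in the testis (1), 0 in the fit of all 56 and 3 by the p and fold rule; in the efferent ductules (5), 10 with DESeq2, 11 by library size only and 12 by that rule; in the initial segment (4), 2 by library size only, 1 in the fit of all 56 and 2 with the block; in the caput (2), 1 by library size only; in the corpus (3), 5 with DESeq2, 5 with no filter, 5 with the block and 5 by the p and fold rule; and in the cauda (0), 1 with DESeq2, 8 in the fit of all 56 and 8 by that rule. Leaving out a library gave 0 to 1, 1 to 7, 1 to 5, 2 to 9, 0 to 3, 0 to 0 and 7 to 12 in the same order of regions; the 9 in the caput came without replicate 1 at 3 months, and the 0 in the corpus without replicate 3 at 3 months. The regions came from the same mice according to the methods, but no source used here says that a number marks a mouse. All 4 same-numbered libraries deviated together (r over 0.1) in 0 of 7 pairs of ages and 1 of 42 pairs of regions, corpus and cauda at 3 months (lowest r 0.12), where the replicate block gave the same count, 6. With the block the 9 genes gave 1 call in the corpus, Cfd, and 4 in the vas deferens, with Clu called there (adjusted p = 0.0276). Between corpus and cauda at 3 months 6 genes became 3 with the 8 libraries of the pair alone, 3 to 6 when the libraries of a replicate number were left out, and 3 without replicate 3 of the cauda, an alternative chosen after seeing the data, as were the interaction fits without it or without replicate 4 of the vas deferens at 21 months and the shares of genes by unadjusted p in the cauda without it; so was the fit of the efferent ductules without replicates 2 and 3 at 21 months, where 5 of the 9 genes were called; between initial segment and caput 4 became 1 to 4; between efferent ductules and testis the count was 9 to 9, between initial segment and efferent ductules 6 to 6, between corpus and caput 6 to 8 and between vas deferens and cauda 6 to 7. Of the 6 genes whose age effect differed between regions, 3 to 6 passed when a replicate number was left out, 3 without number 1 and 3 without number 2. The highest likeness by Spearman's rho and over 56 libraries was 0.97 and 0.96 for C1qb (C1qc in both), 0.97 (Mmp9) and 0.98 (Prss23) for C3, 0.95 (Gstt1) and 0.93 (Cyp2d22) for C4b, 0.98 (Smo) and 0.97 (Gm12343) for Cfb, 0.99 (Sh3kbp1) and 0.92 (Sept6) for Cd55, and 0.91 (Gm45360) and 0.89 (Gm10152) for Clu. The cause of these shifts was not tested. Depth limits Cfb outside the efferent ductules, and Cfd in the testis, initial segment and caput.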
